A study of Homo sapiens with 8 samples.

Results

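Proline tRNAs were examined as 3 isoacceptor families, tRNA-Pro-AGG, tRNA-Pro-CGG and tRNA-Pro-TGG, among the 55 RNA families (50 of tRNA, 5 of rRNA) that carried crosslink sites in 8 iCLIP libraries. Members were every sense-strand site on a reference named as a proline tRNA. The group was chosen by its crosslink counts in DUS2L against DUS1L libraries, so those levels are given as a description, with no test. The comparison of 5-chlorouridine with untreated cells played no part in that choice and was tested.

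iCLIP crosslinks a protein to RNA in living cells, purifies the complex and reads out the nucleotide at the crosslink. The cells were Flp-In T-Rex 293, a human embryonic kidney line in which an integrated transgene is switched on by tetracycline. The 4 groups, of 2 libraries each, were 3xFLAG-DUS2L cells given 5-chlorouridine (5-ClUrd), untreated 3xFLAG-DUS2L cells, 3xFLAG-DUS1L cells given 5-ClUrd and untreated 3xFLAG-DUS1L cells. All 4 groups received 1 µg/mL tetracycline for 12 h and kept it for 12 h more, and the treated groups had 100 µM 5-ClUrd in that second period. Untreated therefore means without 5-ClUrd but with the induced, tagged enzyme. The series describes the libraries of a group as biological replicates, 2 cultures per group. The edgeR p-values use a spread between replicate libraries that is estimated partly over all tested features. A very small p-value for 1 site therefore rests on that shared estimate as well as on the 2 cultures of each group.

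Dihydrouridine synthases reduce uridine to dihydrouridine in the D loop of tRNA, near its 5′ end. DUS2L is the human enzyme known for conventional position 20 of the D loop, and DUS1L is known for positions 16 and 17. 5-ClUrd is a halogenated uridine analogue that cells can incorporate into RNA, and halogenated uridines in RNA are known to be able to form covalent adducts with such enzymes. Proline tRNAs decode the 4 proline codons, and the 3 letters in each family name are the anticodon written as DNA.

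The 3 families were represented by 7 references, which name 20 genes. All 20 had an entry in RefSeq (GRCh38.p14), and each is 72 nt long. The AGG family has 9 of these genes, the CGG family 4 and the TGG family 7. Chromosome 16 holds 7 of them, chromosome 14 holds 4, chromosomes 1, 6 and 11 hold 2 each, and chromosomes 5, 7 and 17 hold 1 each. Of the 3 that lie within the span of another annotated gene, TRP-AGG1-1 (chr16:3191989-3192060) and TRP-AGG2-8 (chr16:3189634-3189705) are inside OR1F1, an olfactory receptor gene, and TRP-CGG1-3 (chr17:8222833-8222904) is inside LINC00324, a long non-coding RNA gene. Copies within a family are near-identical, so values for single references are uncertain. Positions run 5′ to 3′ along the reference, starting at 1, and were not aligned to conventional tRNA numbering.

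Total sense counts were 370878 and 363024 in the 5-ClUrd DUS2L libraries and 130011 and 172078 in the untreated DUS2L libraries. They were 824657 and 542521 in the 5-ClUrd DUS1L libraries, and 144322 and 7369 in the untreated DUS1L libraries. The second untreated DUS1L library was thus far shallower than the rest.

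Proline tRNA counts were high in all 4 DUS2L libraries and near 0 in all 4 DUS1L libraries. All proline families together had 6555 and 10440 counts in the 5-ClUrd DUS2L libraries and 4634 and 6156 in the untreated DUS2L libraries. In DUS1L libraries they had 24 and 33 counts with 5-ClUrd, and 3 and 1 without. As a share of sense counts this was 1.77% and 2.88% in 5-ClUrd DUS2L, 3.56% and 3.58% in untreated DUS2L, 0.00291% and 0.00608% in 5-ClUrd DUS1L, and 0.00208% and 0.0136% in untreated DUS1L. The lowest DUS2L share exceeded the highest DUS1L share.

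Every isoacceptor followed that order. tRNA-Pro-AGG had 698 and 1058 counts in 5-ClUrd DUS2L and 627 and 770 in untreated DUS2L. It had 4 and 3 counts in 5-ClUrd DUS1L and 0 and 0 in untreated DUS1L, where a count of 0 allows a share of up to 0.00208% and 0.0407%. tRNA-Pro-CGG had 1729 and 2125 counts in 5-ClUrd DUS2L, 1906 and 2475 in untreated DUS2L, 4 and 3 in 5-ClUrd DUS1L, and 1 and 0 in untreated DUS1L. tRNA-Pro-TGG had 4128 and 7257 counts in 5-ClUrd DUS2L, 2101 and 2911 in untreated DUS2L, 16 and 27 in 5-ClUrd DUS1L, and 2 and 1 in untreated DUS1L. The TGG family was the most abundant of the 3 in every DUS2L library.

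Pooled over the 2 libraries of a group, the share of proline tRNA with 5-ClUrd was 555-fold higher in DUS2L than in DUS1L, with a 95% counting interval of 428 to 734. That ratio was 467 for AGG, 1026 for CGG and 493 for TGG. The spread between libraries was wider than this interval: without 5-ClUrd DUS1L replicate 2, the log2 ratio of mean shares was 9.64 for all proline and 9.65 for TGG, against 9.01 and 8.81 with it. Without 5-ClUrd the DUS2L share was 1355 times the DUS1L share, with an interval of 529 to 4972 because the DUS1L side rests on 4 counts. For AGG without 5-ClUrd the DUS1L group had 0 counts, and the lower 95% counting limit of the ratio was 189.9. Set against a floor of 3 counts over that group, the ratio was 234. Leaving out the shallow untreated DUS1L library, which held 1 proline count, moved the log2 ratio of mean shares without 5-ClUrd to 10.75, against 8.83 with it. Intervals and floors cover counting error only. The DUS2L site file names mention premapping to non-coding RNA and those of DUS1L do not, so file making and enzyme cannot be told apart in these ratios.

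**Figure D1:**
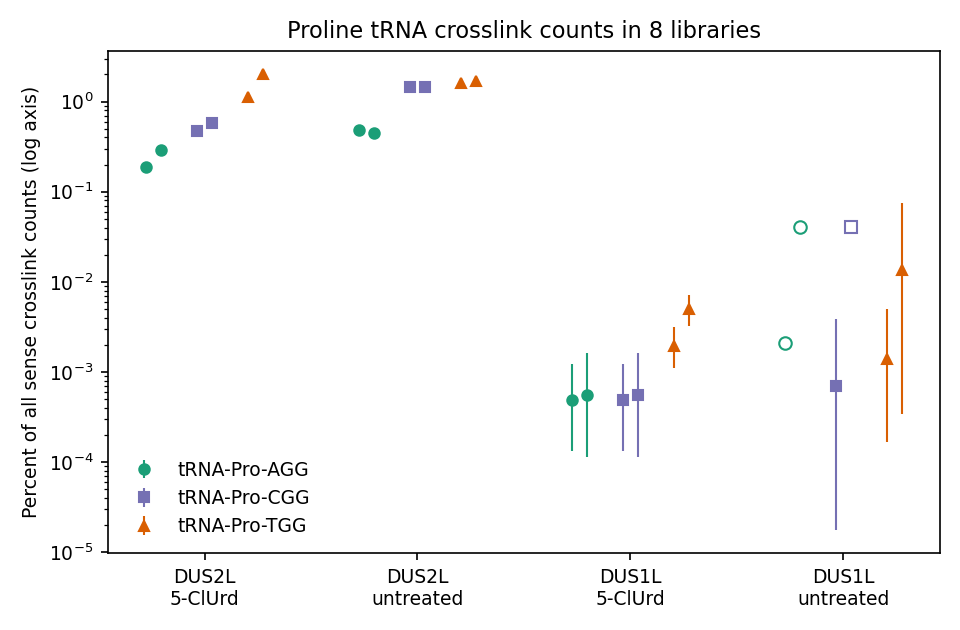
Percent of all sense crosslink counts (log axis) for each proline isoacceptor in each of the 8 libraries, 2 points per group, with 95% Clopper-Pearson intervals that are narrower than the symbol in DUS2L. Open symbols mark libraries with 0 counts and stand at the share of 3 counts. Filled DUS2L points lie above every filled DUS1L point.

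The authors' deposited peaks, intervals scored by the site counts they enclose, with a lowest score of 10, gave the same division. Of 1680 peaks in all libraries, 18 lay on proline references. The 5-ClUrd DUS2L libraries held 5 and 5 of them, the untreated DUS2L libraries 5 and 3, and the DUS1L libraries 0. The CGG-1 reference carried the highest scores, 1074 over positions 16 to 19 and 1495 over positions 15 to 19 with 5-ClUrd, against 1144 over 15 to 19 and 971 over 15 to 16 without. These are raw counts from libraries of unequal depth and intervals of unequal width, so they do not measure a change with 5-ClUrd. The only TGG peak was on TGG-3 at positions 14 to 15 in untreated library 1, with a score of 241, although TGG had the most counts.

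5-ClUrd treatment of DUS2L cells was accompanied by lower shares of the AGG and CGG isoacceptors. tRNA-Pro-CGG made up 0.466% and 0.585% of sense counts in 5-ClUrd libraries and 1.47% and 1.44% in untreated libraries. Both treated values lay below both untreated ones, and the family fell by 1.47 ± 0.21 on the log2 scale (SE, n = 2 each, edgeR quasi-likelihood F test, adjusted p = 0.000726). tRNA-Pro-AGG made up 0.188% and 0.291% with 5-ClUrd and 0.482% and 0.447% without. The groups did not overlap, and AGG fell by 0.95 ± 0.26 on the log2 scale (edgeR, adjusted p = 0.0130). In one fit of all 8 libraries the AGG call was lost, at the same change (edgeR, adjusted p = 0.0515).

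tRNA-Pro-TGG behaved differently between its treated libraries. It made up 1.11% and 2.00% of sense counts with 5-ClUrd and 1.62% and 1.69% without, so the untreated values lay between the treated ones. Its log2 change was -0.09 ± 0.30 (edgeR, adjusted p = 0.807). This call depended on scaling: with TMM factors the change was -0.74 and passed the threshold (edgeR, adjusted p = 0.0194). It also depended on 1 library. Without treated replicate 1 the log2 change was 0.27, and without treated replicate 2 it was -0.57 (edgeR, adjusted p = 0.00337).

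These calls were read against a background in which most families moved. Of the 55 families, 52.7% were called higher and 23.6% lower with 5-ClUrd, and their median log2 change was 0.86. With either untreated library left out, 19 families in place of 29 were higher, and 9 or 7 in place of 13 were lower. Of the 3 proline families, 0 were called higher and 2 lower, with a median of -0.95. None was higher at an unadjusted p under 0.05 either, and DESeq2's Wald test called 0 higher. The 47 other tRNA families had 29 higher, 7 lower and a median of 0.97, and the 5 rRNA families had 0 higher, 4 lower and a median of -2.01. TMM moved the median of all families by -0.65 relative to scaling on total counts. AGG and CGG were lower under each scaling tried.

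The balance between isoacceptors does not depend on the library total. TGG over CGG counts gave a ratio of 2.39 and 3.42 with 5-ClUrd and 1.10 and 1.18 without. TGG over AGG gave 5.91 and 6.86 with 5-ClUrd and 3.35 and 3.78 without. TGG thus formed 63.0% and 69.5% of proline counts in treated libraries and 45.3% and 47.3% in untreated ones, and the groups did not overlap. An exact two-sided permutation test of 2 against 2 cannot go below p = 0.333, which is the value both ratios gave.

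The 7 references differed within their families. AGG-1, which stands for 1 gene, made up 0.0744% and 0.133% of sense counts with 5-ClUrd and 0.347% and 0.337% without. It fell by 1.72 ± 0.38 on the log2 scale (edgeR, adjusted p = 3.3e-05). AGG-2, which stands for 8 genes, made up 0.114% and 0.158% with 5-ClUrd and 0.135% and 0.110% without, a log2 change of 0.15 ± 0.44 (edgeR, adjusted p = 0.781). The AGG-2 libraries overlapped between groups, whereas those of AGG-1 did not. The difference between the changes of the references was not tested.

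Both CGG references were lower. CGG-1, with 3 genes, made up 0.390% and 0.488% with 5-ClUrd and 1.14% and 1.15% without, and fell by 1.38 ± 0.31 on the log2 scale (edgeR, adjusted p = 3.4e-05). CGG-2, with 1 gene, made up 0.0763% and 0.0975% with 5-ClUrd and 0.325% and 0.290% without, and fell by 1.82 ± 0.40 on the log2 scale (edgeR, adjusted p = 2.4e-05).

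Among the TGG references TGG-3 was called at total-count scaling. TGG-3, with 5 genes, made up 0.131% and 0.151% with 5-ClUrd and 0.343% and 0.357% without, and fell by 1.31 ± 0.37 on the log2 scale (edgeR, adjusted p = 0.000979). At about the same change, this call was lost in the fit of all 8 libraries (edgeR, adjusted p = 0.0766) and without untreated replicate 1 (0.0787) or 2 (0.102). TGG-1 made up 0.193% and 0.469% with 5-ClUrd and 0.311% and 0.313% without, a log2 change of 0.09 ± 0.33 (edgeR, adjusted p = 0.830). TGG-2, the most abundant TGG reference, made up 0.789% and 1.38% with 5-ClUrd and 0.962% and 1.02% without, a log2 change of 0.13 ± 0.30 (edgeR, adjusted p = 0.721). With TMM factors AGG-2, TGG-1 and TGG-2 turned to -0.85, -0.93 and -0.88, of which both TGG values passed the threshold. Of 230 references tested, 48.7% were called higher and 12.2% lower, against 0 higher and 4 lower of the 7 proline references. Without untreated replicate 1 the counts over all references were 71 higher and 14 lower, and without replicate 2 they were 61 and 11, in place of 112 and 28. No proline reference was higher at an unadjusted p under 0.05 or by DESeq2's Wald test, and without treated replicate 1 there was 1, TGG-1 (0.59, edgeR, adjusted p = 0.00866).

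**Figure D2:**
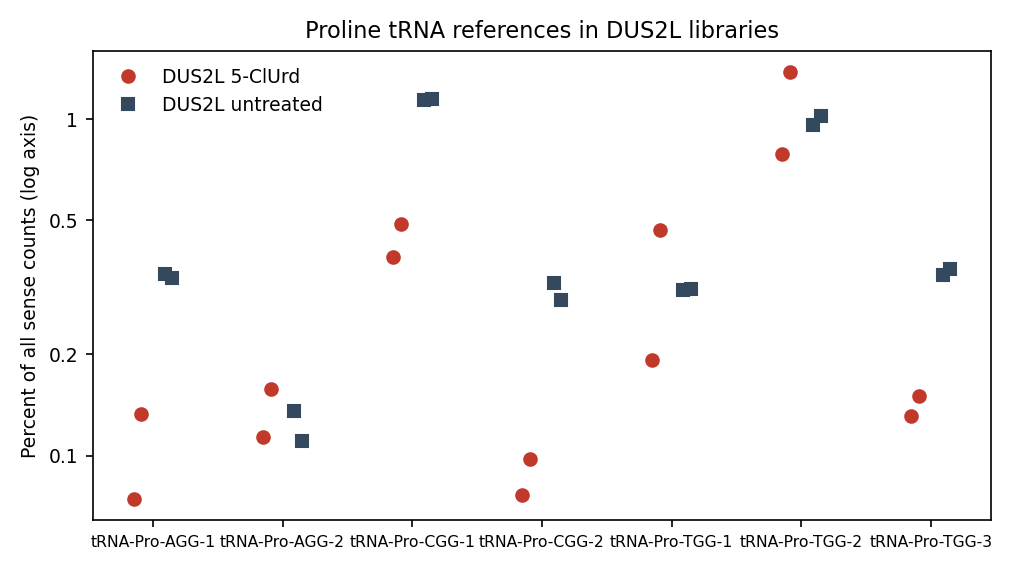
Percent of all sense counts (log axis) for the 7 proline references in the DUS2L libraries, 1 point per library, with 5-ClUrd left of untreated. Treated and untreated points are apart for AGG-1, CGG-1, CGG-2 and TGG-3 and overlap for AGG-2, TGG-1 and TGG-2.

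Crosslink sites on proline tRNAs were confined to the 5′ part of the references. Over all 8 libraries the 102 sites, counted by family and position, lay between positions 2 and 38, and 0 proline counts lay past position 38. All 47 other tRNA families had at least 1 site past that position, but their shares there varied widely. Over all libraries tRNA-Gly-TCC had 0.0128% of its counts past position 38, tRNA-Glu-CTC had 0.353%, tRNA-Leu-TAG had 2.53% and tRNA-Leu-CAG had 26.5%. Proline was thus at the low end of a range that other families came close to. A pair of references stopped earlier still in DUS2L libraries. TGG-1, with 3360 counts, and TGG-3, with 2094 counts, had sites at positions 2 to 15 and none beyond, whereas TGG-2 reached position 37 and had 3019 counts from position 16 on. All TGG values at position 16 and beyond therefore come from TGG-2. How reads that match several references were handled is not given in the sources used here.

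Within that stretch, the AGG and CGG families were crosslinked mainly at position 16 in untreated DUS2L libraries. With 5-ClUrd, position 19 held the most counts of both families in replicate 1, and position 16 did in replicate 2. In the TGG family position 9 was the single position with the most counts, a value that mixes references with and without sites past position 15. In 5-ClUrd DUS2L libraries, positions 14 to 20, called the D loop here by position alone, held 82.2% and 86.8% of AGG counts, against 79.6% and 80.9% in untreated ones. They held 76.9% and 83.8% of CGG counts with 5-ClUrd and 83.4% and 78.1% without, and those groups overlapped. For TGG the same positions held 16.2% and 20.1% with 5-ClUrd and 50.7% and 48.8% without. Position 9 alone held 35.9% and 27.6% of TGG counts with 5-ClUrd and 24.6% and 25.2% without. In TGG-2, the TGG reference that extends past position 15, position 9 held 30.2% and 21.0% with 5-ClUrd and 20.9% and 21.2% without. Position 16 of TGG-2 held 6.29% and 7.77% with 5-ClUrd and 29.7% and 27.9% without, so in untreated libraries it exceeded position 9.

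**Figure D3:**
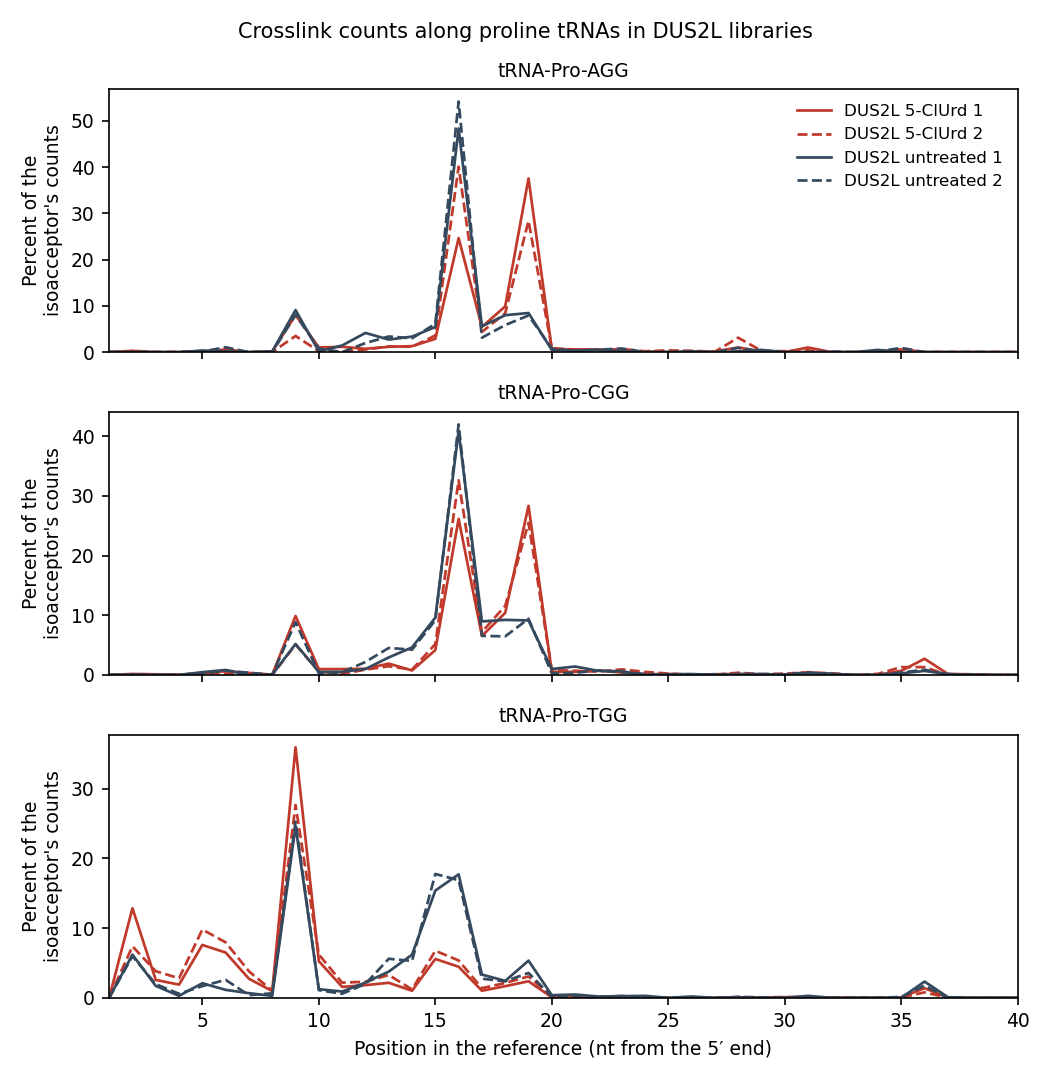
Percent of each isoacceptor's counts at positions 1 to 40 of the reference, counted from the 5′ end, in the 2 treated and 2 untreated DUS2L libraries. Position 19 is higher in both treated libraries of AGG and CGG, and positions 2 to 10 carry most treated TGG counts.

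For all proline counts, positions 1 to 9 held 48.7% and 46.2% with 5-ClUrd and 20.8% and 23.8% without. Positions 10 to 24 held 48.5% and 51.4% with 5-ClUrd and 76.7% and 74.0% without. Neither pair of groups overlapped, and each gave the smallest p the design allows (exact permutation test, p = 0.333). Within families, TGG moved the same way: positions 1 to 9 held 71.0% and 64.2% of its counts with 5-ClUrd and 37.0% and 39.1% without. In AGG these positions held 9.17% and 4.06% with 5-ClUrd and 9.73% and 9.22% without, and in CGG 11.6% and 5.69% with 5-ClUrd and 6.61% and 10.3% without. TGG also formed more of the proline counts with 5-ClUrd, 63.0% and 69.5% against 45.3% and 47.3%. How much of the all-proline shift came from each was not tested.

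Single sites were tested over the 3582 sites of all families with at least 10 counts. Of the proline sites, 72 reached that minimum in DUS2L libraries and 30 did not, with at most 9 counts each. With 5-ClUrd, 15.5% of all tested sites were called higher and 23.8% lower, against 5 higher and 11 lower of the 72 proline sites. These shares are for total-count scaling, and TMM factors moved the median log2 change of all sites by 0.64. All 5 higher sites were on TGG, at positions 4, 5, 6, 7 and 10. The 11 lower ones were 2 on AGG, 6 on CGG and 3 on TGG, and at each of the 16 sites the treated and untreated libraries did not overlap. These calls need both untreated libraries. Without either one, no site call was kept in any family, while all 16 proline sites kept the sign of their change. Without treated replicate 2 the higher calls were also lost. With TMM factors all 5 higher calls and 4 of the 11 lower calls were kept.

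The higher sites lay near the 5′ end of TGG, with positions 8 and 9 between them not called (edgeR, adjusted p = 0.424 and 0.527). Position 5 of TGG held 0.0844% and 0.196% of sense counts with 5-ClUrd and 0.0338% and 0.0285% without, a log2 change of 2.17 ± 0.57 (edgeR, adjusted p = 0.00138). Position 6 held 0.0723% and 0.159% with 5-ClUrd and 0.0185% and 0.0436% without, a change of 1.89 ± 0.60 (edgeR, adjusted p = 0.00846). Position 10 held 0.0585% and 0.124% with 5-ClUrd and 0.0200% and 0.0186% without, a change of 2.24 ± 0.68 (edgeR, adjusted p = 0.00633). Positions 4 and 7, with fewer counts, changed by 2.39 and 2.64. At all 5 positions treated replicate 2 was the higher treated library.

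The 2 sites with the most counts among positions 2 to 10 of TGG did not pass the test at total-count scaling. Position 9 of TGG, the proline site with the most counts, held 0.400% and 0.553% with 5-ClUrd and 0.398% and 0.427% without, a log2 change of 0.21 ± 0.27 (edgeR, adjusted p = 0.527). It was called higher with TMM factors (0.86, edgeR, adjusted p = 0.0331) and with DESeq2 size factors (0.67, edgeR, adjusted p = 0.0418), but not by DESeq2's Wald test (0.67, adjusted p = 0.238). Position 2 of TGG held 0.143% and 0.148% with 5-ClUrd and 0.100% and 0.101% without, a change of 0.53 ± 0.46 (edgeR, adjusted p = 0.341). Over positions 2 to 9, TGG had 4 of 8 tested sites higher and 0 lower with a median log2 change of 1.43, and the other tRNA families had 124 higher and 6 lower of 222 with a median of 2.75.

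Position 16 was lower in all 3 families. In CGG it held 0.122% and 0.191% of sense counts with 5-ClUrd and 0.599% and 0.604% without, and fell by 1.94 ± 0.30 on the log2 scale (edgeR, adjusted p = 6.0e-09). In TGG it held 0.0496% and 0.107% with 5-ClUrd and 0.286% and 0.285% without, a log2 change of -1.87 ± 0.40 (edgeR, adjusted p = 8.9e-05). In AGG it held 0.0464% and 0.117% with 5-ClUrd and 0.233% and 0.242% without, a log2 change of -1.54 ± 0.42 (edgeR, adjusted p = 0.00231). The AGG call was lost with TMM factors (-0.92, edgeR, adjusted p = 0.125), with DESeq2's Wald test and in the fit of all 8 libraries, and the CGG and TGG calls held there. Among the other tRNA families 14 of 40 tested sites at position 16 were higher and 3 lower, with a median of 0.67.

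Of the 12 proline sites tested at positions 12 to 15, 6 were called lower and 6 were not called. Over all tested sites 23.8% were called lower, and positions 12 to 15 are not one of the windows used above. Position 15 of CGG held 0.0194% and 0.0303% with 5-ClUrd and 0.141% and 0.132% without, a log2 change of -2.45 ± 0.58 (edgeR, adjusted p = 0.000439). Position 14 of CGG had 13 and 19 counts with 5-ClUrd and 88 and 105 without, a change of -3.87 ± 0.87 (edgeR, adjusted p = 0.000177). Position 13 of CGG changed by -2.63, position 14 of TGG by -2.42 and position 12 of AGG, with 5 and 6 treated counts against 26 and 15, by -3.21. Position 15 of TGG held 0.0620% and 0.135% with 5-ClUrd and 0.248% and 0.300% without, a change of -1.48 ± 0.39 (edgeR, adjusted p = 0.00174). Among those not called, position 12 of TGG had a log2 change of -0.06 and position 13 of TGG -0.80, with overlapping libraries, and the other 4 (AGG 13, 14 and 15 and CGG 12) had changes between -2.34 and -1.75. With TMM factors the calls at position 15 of TGG, position 13 of CGG, position 14 of TGG and position 12 of AGG were lost.

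**Figure D4:**
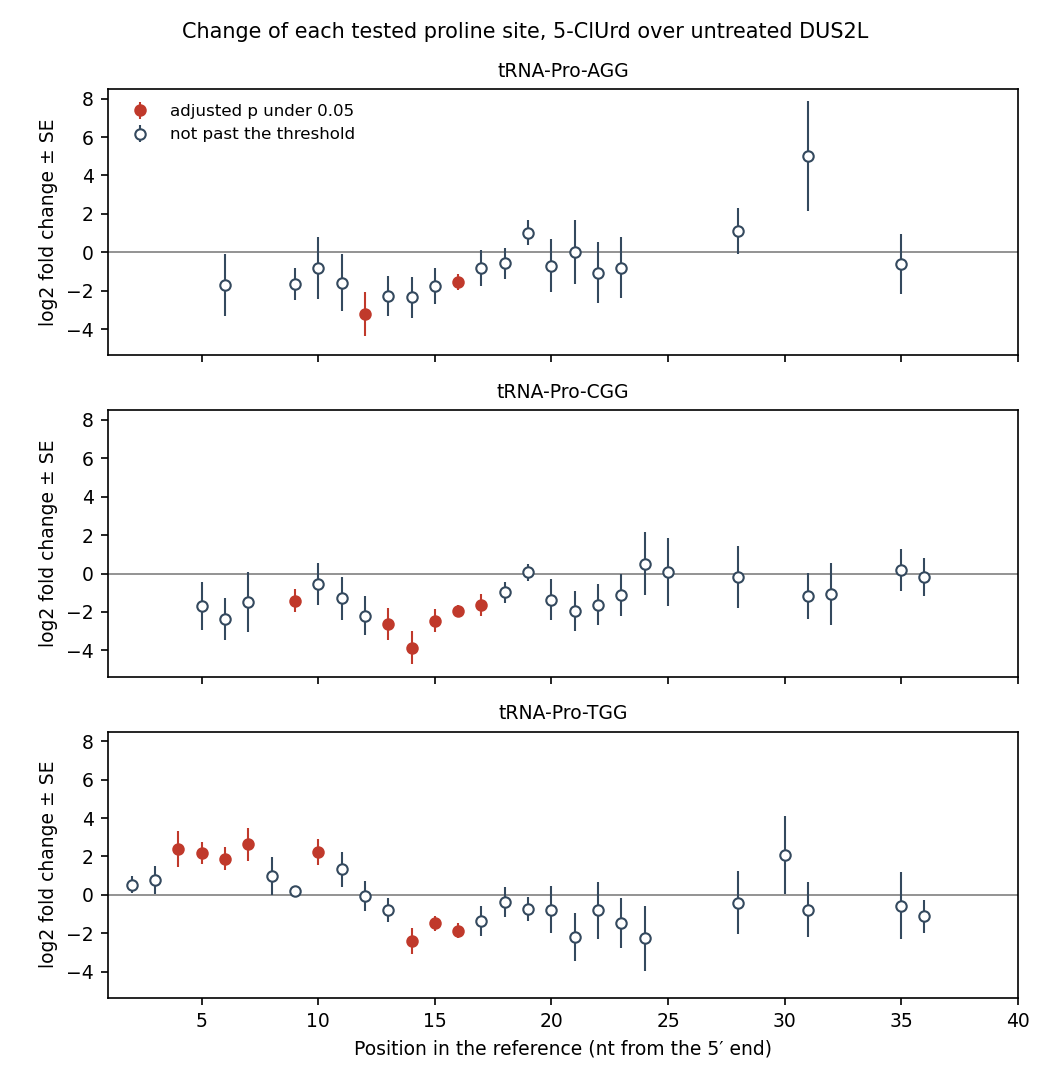
Log2 fold change of 5-ClUrd over untreated DUS2L (± SE, edgeR) at each of the 72 tested proline sites, by position from the 5′ end. Filled points passed an adjusted p of 0.05. The 5 filled points above 0 are on TGG at positions 4 to 10, and filled points at position 16 lie below 0 in each family.

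Position 19 was called in none of the 3 families in the total-count fit. In CGG it held 0.132% and 0.149% of sense counts with 5-ClUrd and 0.134% and 0.135% without, a log2 change of 0.06 ± 0.44 (edgeR, adjusted p = 0.919). In AGG it held 0.0706% and 0.0826% with 5-ClUrd and 0.0408% and 0.0354% without, a change of 1.01 ± 0.65 (edgeR, adjusted p = 0.185). In TGG it held 0.0264% and 0.0612% with 5-ClUrd and 0.0861% and 0.0604% without, a change of -0.74 ± 0.64 (edgeR, adjusted p = 0.334). None of the 3 passed an unadjusted p of 0.05 in edgeR with total-count scaling. AGG was called higher with TMM factors (1.68, edgeR, adjusted p = 0.0432) and by DESeq2's Wald test (1.47, adjusted p = 0.0354), and CGG and TGG were not. Of the 38 other tRNA families tested at position 19, 17 were higher and 2 lower, with a median of 1.46.

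Set against position 16 within the same library, position 19 weighed more with 5-ClUrd in all 5 references that carry both sites. This pair of positions was chosen after the values were seen. In CGG-1 the counts at position 19 divided by those at position 16 gave 1.29 and 0.884 with 5-ClUrd and 0.251 and 0.252 without. In AGG-2 the ratio was 2.20 and 1.03 with 5-ClUrd and 0.202 and 0.257 without. In AGG-1 it was 0.780 and 0.402 with 5-ClUrd and 0.162 and 0.111 without. CGG-2 gave 0.302 and 0.383 with 5-ClUrd and 0.150 and 0.146 without, and TGG-2 gave 0.533 and 0.571 with 5-ClUrd and 0.301 and 0.212 without. No reference had overlapping groups, and the mean log2 change of the ratio ran between 1.13 in TGG-2 and 2.73 in AGG-2. Each gave p = 0.333 by the exact permutation test, the smallest possible, and the 5 references share their libraries.

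**Figure D5:**
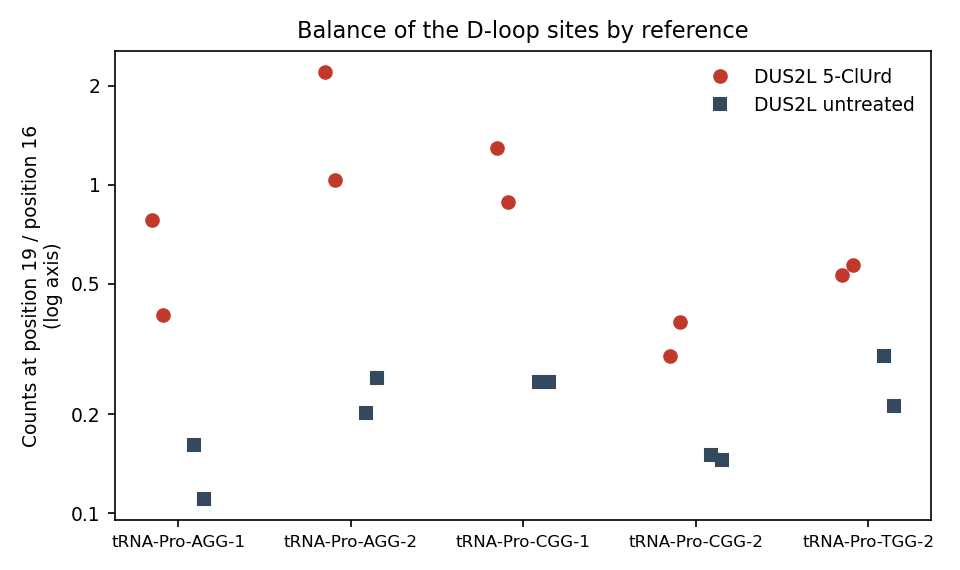
Counts at position 19 divided by counts at position 16 (log axis) for the 5 proline references with both sites, 1 point per DUS2L library, with 5-ClUrd left of untreated. Both treated points lie above both untreated points in each reference.

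As a share of the isoacceptor's own counts, position 19 held 37.5% and 28.4% of AGG with 5-ClUrd and 8.45% and 7.92% without. It held 28.3% and 25.5% of CGG with 5-ClUrd and 9.13% and 9.41% without. Position 16 held 24.6% and 40.1% of AGG with 5-ClUrd and 48.3% and 54.2% without, and 26.1% and 32.6% of CGG with 5-ClUrd and 40.9% and 41.98% without. In TGG position 19 held 2.37% and 3.06% with 5-ClUrd and 5.33% and 3.57% without.

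A smaller set of sites lay in the anticodon arm, positions 26 to 42. CGG-2 had 24.03% and 18.4% of its counts there with 5-ClUrd and 5.91% and 8.22% without, and deposited peaks covered its positions 35 to 36 in all 4 DUS2L libraries. Their scores, which are raw counts, were 59 and 56 with 5-ClUrd and 18 and 32 without. The treated libraries were deeper, with 370878 and 363024 sense counts against 130011 and 172078, so these scores show no change by themselves. CGG-1 had 0.899% and 1.69% of its counts in the arm with 5-ClUrd and 1.08% and 0.860% without, so the groups overlapped. TGG-2 went the other way, with 2.60% and 1.90% of its counts there with 5-ClUrd and 5.04% and 3.58% without. AGG-1 had 4.35% and 8.68% with 5-ClUrd and 0.887% and 2.76% without. AGG-2 had 2.13% and 1.92% with 5-ClUrd and 2.27% and 0.526% without, and its groups overlapped. The single-site tests of CGG at positions 35 and 36 did not pass the threshold. Position 36 of CGG held 0.0127% and 0.00771% of sense counts with 5-ClUrd and 0.0100% and 0.0128% without, so the groups overlapped. Position 36 of TGG held 0.0154% and 0.0157% with 5-ClUrd and 0.0377% and 0.0296% without, and was not called.

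In DUS1L cells proline counts were too few for a comparison of most families. AGG and CGG fell under 10 counts over the 4 libraries and were not tested. TGG had 0.00194% and 0.00498% of sense counts with 5-ClUrd and 0.00139% and 0.0136% without, a log2 change of 0.48 ± 1.31 (edgeR, adjusted p = 0.787). The groups overlapped, and the sign turned with TMM factors (-0.62) and with replicates left out. In that enzyme's fit 22.6% of 53 families were called higher and 1.89% lower. In an interaction test over all 8 libraries, added after the data were seen, the log2 effect of 5-ClUrd was estimated for both enzymes, and the DUS2L effect less the DUS1L effect was -1.14 ± 0.92 for CGG (edgeR, adjusted p = 0.497) and -0.72 ± 1.21 for TGG (edgeR, adjusted p = 0.615). For AGG it was -4.78 (edgeR, adjusted p = 0.165), a fitted value that rests on 0 counts in untreated DUS1L and is no bound.

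The 5 families whose levels over the 8 libraries were most like those of the summed proline tRNAs were tRNA-Gly-CCC, tRNA-Leu-CAG, tRNA-Leu-AAG, tRNA-Leu-TAG and tRNA-Glu-TTC. Their root mean square differences from the proline profile, in log2(CPM + 10) centred on each profile's mean, were 1.31, 1.62, 1.64, 1.81 and 1.88. With 5-ClUrd in DUS2L cells tRNA-Gly-CCC and tRNA-Glu-TTC were higher, with log2 changes of 0.71 (edgeR, adjusted p = 0.0244) and 0.88 (edgeR, adjusted p = 0.0110). tRNA-Leu-CAG and tRNA-Leu-TAG were lower, with log2 changes of -0.98 (edgeR, adjusted p = 0.0245) and -0.68 (edgeR, adjusted p = 0.0211), and tRNA-Leu-AAG had -0.40 (edgeR, adjusted p = 0.178). With a pseudocount of 1 CPM, 3 of these 5 families stayed among the nearest.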

How the data were processed

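The deposited site files hold raw whole-number counts per crosslinked nucleotide and strand, 1 file per library, and show no normalization. The deposited peak score of an interval equals the summed counts inside it. Reads were aligned with STAR 2.7.0f against hg38, per the submitters' processing notes. For peak calling, molecular identifiers and multi-mapping the methods were not given in the sources used here.

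Sense counts were summed by isoacceptor, reference and position. 3 antisense proline counts were left out. Features with at least 10 counts were tested on the whole table with edgeR 4.0.16 (R 4.3.3), library size being total sense counts, with Benjamini-Hochberg adjustment at 0.05. DESeq2 1.42.0, other scalings, minimums and left-out libraries were alternatives. The model was also run on simulated counts, with a fixed spread between libraries and changes larger than most proline changes given here. The outcome is not given here, and no call rests on it. Shares were compared by exact two-sided permutation, and intervals are 95% Clopper-Pearson or conditional binomial. Tables were made with pandas 2.3.3, scipy 1.17.1 and numpy 2.4.6 in Python 3.11.15, and figures with matplotlib 3.10.9.

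Members and lists were chosen with earlier results of these data known. Named positions were the 8 proline sites of highest mean treated share and up to 5 called and non-overlapping sites in each direction. Positions 16 and 19 of the other families were named after their values were seen. Replicate numbers were not used as pairs: replicate differences correlated at -0.023 over 52 DUS2L families and 0.315 over 30 DUS1L families.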

Additional observations from a re-analysis of the deposited data

How the results depend on the processing

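CGG stayed lower and called under all alternatives, AGG under all but the fit of all 8 libraries (-0.95, adjusted p = 0.0515). With 1 library left out, the log2 changes ran between -1.64 and -1.31 for CGG, -1.30 and -0.67 for AGG, and -0.57 and 0.27 for TGG. TGG was called lower with TMM factors (-0.74), DESeq2 size factors (-0.84), DESeq2's Wald test (-0.84) and without treated replicate 2 (-0.57). In DUS1L, TGG turned to -0.62 with TMM, -0.90 with DESeq2 size factors and -0.21 with the replicate block, and ran between -1.99 and 1.27 with libraries left out. Proline references called lower numbered 7 with DESeq2's Wald test, against 4. The share over all references under that test is not given here, and DESeq2 size factors moved the median of all families by -0.75. Those called higher ran between 0 and 1 with a library left out. AGG-2 reversed to -0.85, -0.95, -0.95 and -0.066 with TMM, DESeq2 size factors, the Wald test and tRNA scaling. Under the same settings TGG-1 gave -0.93, -1.02, -1.02 and -0.12, and TGG-2 gave -0.88, -0.97, -0.97 and -0.077. TGG-1 was -0.048 with the replicate block. Without sites above 500 counts TGG-1 was -0.12, TGG-2 was -0.15 and position 9 of TGG was -0.45. With tRNA scaling position 19 of CGG was -0.15. With libraries left out, the lowest and highest values were -0.11 and 0.37 for AGG-2, -0.69 and 0.59 for TGG-1, -0.33 and 0.48 for TGG-2, -0.045 and 0.42 for position 9 of TGG, and -0.027 and 0.15 for position 19 of CGG. The cause was not tested.

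Proline sites called lower numbered 4 with TMM, 6 with the Wald test and 7 in the fit of all 8 libraries, against 11. Shares over all sites under these settings are not given here. With a library left out, lower calls ran between 0 and 11 and higher calls between 0 and 5. The lone library left in a group is taken to be as variable as the other group's. TMM moved the median change of all sites by 0.64 and DESeq2 size factors by 0.44. Without sites above 500 counts position 5 of TGG lost its call (1.17). The replicate block left 4 higher and 10 lower site calls and changed no family call.

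Differences in share (5-ClUrd minus untreated, percentage points) of proline counts in positions 1 to 9 were 28.5 with windows widened by 1 position, -0.70 with each site counted once (every TGG position between 2 and 24 was occupied in all 4 libraries, so this setting could not show a shift in counts) and 18.6 without sites above 500 counts. For positions 10 to 24 they were -3.59 and -19.2 under the last 2 settings, and for positions 14 to 20 -3.60 and -22.0. The widened window at position 25 gave -0.027, and positions 26 to 42 gave between -0.0017 (without treated replicate 1) and 0.386 with libraries left out. The log2 ratio of mean shares, DUS2L over DUS1L, ran between 8.58 and 9.64 with 5-ClUrd and between 8.04 and 10.75 without, with libraries left out. Depth limits every DUS1L value: 57 proline counts with 5-ClUrd and 4 without.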
